A study of Mus musculus with 36 samples.

Results

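The 134 probes described here were those whose signal was lower by 6 h after C2C12 myoblasts were switched to differentiation medium and was still low at 144 h, out of 46019 probes on the array. They were chosen on the authors' deposited log2 values, as probes whose mean at 6 h and at 12 h lay at least 0.4 below the mean at 0 h, whose mean at 144 h lay at least 0.5 below it, and whose same-numbered difference from 0 h at 6 h was below 0 in all 3 replicates. The choice rested on the arrays at 0, 6, 12 and 144 h, so values at those times describe the choice and were not tested. Of the 134 probes, 104 had 1 gene symbol in the platform annotation, for 95 genes, and 30 had none.

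C2C12 is an established line of mouse myoblasts, which stop dividing and fuse into multinucleated myotubes when serum is withdrawn. Total RNA was measured on arrays of the Illumina Mouse WG-6 type, on which the brightness of a probe follows the amount of the RNA it binds. The 0 h cells were undifferentiated and grew in DMEM with 20% fetal bovine serum, and the cells at 1, 1.5, 2, 3, 6, 9, 12, 24, 48, 96 and 144 h had been moved to DMEM with 2% horse serum. Each of the 12 times had 3 arrays, 36 in all, from separate plates of successive passages of this 1 line, so p-values measure the spread between such cultures together with that between arrays, and the number of arrays limits the precision. There was no group that kept the rich medium over the same hours, so time in culture and differentiation cannot be told apart.

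Withdrawal of serum removes the mitogens that keep myoblasts in the cell cycle. Id proteins lack a DNA-binding domain and tie up the partners of myogenic bHLH factors such as MyoD, and cyclin D1 drives cells through G1 and is known to hold back MyoD activity. Hepatocyte growth factor and the chemokine Cxcl12 are secreted signals that act on muscle precursor cells, the former known for activating satellite cells and the latter for guiding their migration.

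Levels below are log2 intensities after background correction and quantile normalization, on which a difference of 1 is a 2-fold change. A level follows 1 probe over time, and probes are set beside each other only to say how bright they were on the array. Tests used the 24 arrays at 1, 1.5, 2, 3, 9, 24, 48 and 96 h, none of which entered the choice, in limma's moderated fit over 29812 probes, and a probe was called at a Benjamini-Hochberg adjusted p below 0.05. These arrays were not free of the arrays that made the choice, however. In all 3 replicates the 1 h array lay on the same chip as the 0 h array, the 3 h array with the 6 h array, the 9 h and 24 h arrays with the 12 h array, and the 48 h and 96 h arrays with the 144 h array. With the chip as a block in the fit, the median difference over members was -0.57 from 1 h to 9 h, against -0.56 without it. From 9 h to 96 h it was -0.63 with and without the block. What shared chips contributed to the early and late falls was not tested beyond that fit. In bulk RNA, fewer cells of a type and less RNA per cell cannot be told apart.

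The culture changed as labelled. Mean levels of the muscle markers Myog, Ckm and Tnnt3 went from 9.34, 7.91 and 10.55 at 0 h to 11.95, 13.07 and 15.97 at 144 h. The defining adipocyte, osteoblast, macrophage and endothelial markers on the array had means between 6.29 and 7.56 at 0 h and 144 h, below the median of 7.62 over all tested probes, a median taken after dim probes were removed. Set against the median of all probes on each array, Alpl was above it on 35 of 36 arrays, Sp7 on 32, Fabp4 and Pecam1 on 31 each and Adipoq on 26, while Plin1 and Ptprc were above it on 1 each. Of the smooth muscle markers, Myh11 was at 7.11 and 7.19 and above that median on 17 arrays, and Cnn1 on 0. Acta2 was at 16.10 at 0 h and 16.11 at 144 h, next to the highest level of 16.13 on every array, where a change could not be seen. The part of other cell types in the results was not tested further. The 134 probes were among the brighter ones, with mean levels between 8.39 and 15.34, a median of 11.02 and a median percentile of 85.3 among tested probes. All 134 passed the filter on dim probes, and none was below its array's median on all 3 arrays at 0, 9, 96 or 144 h.

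In the deposited values, the differences from 0 h that made the choice ran from -1.54 to -0.41 at 6 h, from -1.69 to -0.40 at 12 h and from -3.58 to -0.50 at 144 h, with medians of -0.53, -0.62 and -1.22. Nearest inside the limit at 6 h were Anln at -0.4059 and Rasl11b at -0.4064, and nearest outside were Prep at -0.3963 and Lgals9 at -0.396. At 12 h, Igfbp2 at -0.402 and Arap3 at -0.4029 lay just inside, and a further probe of Srsf5 at -0.3994 lay just outside with an unnamed probe at -0.3987. At 144 h, Krt14 at -0.5031 and an unnamed probe at -0.5241 lay just inside, and Capn5 at -0.4997 and Fuom at -0.474 just outside. The deposited scale is compressed beside the one used below, on which the median difference from 0 h was -0.60 at 6 h and -1.47 at 144 h.

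The promoters of 5 members are shown because they belong to the genes described most closely: Id3 for a called early fall, Id2 for a larger early difference that missed the threshold, the neighbouring homeobox genes Dlx1 and Dlx2 for a later one, and Plk1 for the cell division genes. The sequences are RefSeq's on GRCm38.p6, 300 bases around the annotated start, on the strand of the gene. Id2 lies on the minus strand at chr12:25096043-25096342, Id3 on the plus strand at chr4:136143572-136143871, Dlx1 on the plus strand at chr2:71529195-71529494, Dlx2 on the minus strand at chr2:71546705-71547004 and Plk1 on the plus strand at chr7:122159185-122159484. Capitals mark the motifs searched on both strands: CACGTG (E-box), TGACGTCA (cAMP response element), GGCGCC and CAGACA (bound by SMAD proteins), CCAAT (bound by NF-Y, read as ATTGG on the other strand), TTTGAA (the cell cycle homology region) and the CArG box of serum response factor. No entry for Id1, Dlx3 or Ccnd1 was at hand.
Id2: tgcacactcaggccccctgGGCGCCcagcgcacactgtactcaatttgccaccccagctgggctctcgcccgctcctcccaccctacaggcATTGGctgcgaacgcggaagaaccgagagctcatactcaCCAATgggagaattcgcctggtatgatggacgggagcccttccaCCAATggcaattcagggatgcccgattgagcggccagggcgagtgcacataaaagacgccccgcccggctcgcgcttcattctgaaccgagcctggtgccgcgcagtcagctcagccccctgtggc
Id3: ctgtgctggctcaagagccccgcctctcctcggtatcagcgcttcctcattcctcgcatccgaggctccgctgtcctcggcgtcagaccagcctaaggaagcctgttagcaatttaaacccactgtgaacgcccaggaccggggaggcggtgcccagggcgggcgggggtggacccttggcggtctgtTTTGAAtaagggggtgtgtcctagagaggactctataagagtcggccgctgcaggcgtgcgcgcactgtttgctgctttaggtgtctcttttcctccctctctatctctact
Dlx1: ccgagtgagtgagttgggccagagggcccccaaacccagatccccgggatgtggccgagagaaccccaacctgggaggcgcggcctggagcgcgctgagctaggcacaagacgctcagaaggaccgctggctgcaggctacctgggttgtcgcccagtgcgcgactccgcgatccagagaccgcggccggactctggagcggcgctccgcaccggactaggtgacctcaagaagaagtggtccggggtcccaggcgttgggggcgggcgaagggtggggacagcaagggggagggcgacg
Dlx2: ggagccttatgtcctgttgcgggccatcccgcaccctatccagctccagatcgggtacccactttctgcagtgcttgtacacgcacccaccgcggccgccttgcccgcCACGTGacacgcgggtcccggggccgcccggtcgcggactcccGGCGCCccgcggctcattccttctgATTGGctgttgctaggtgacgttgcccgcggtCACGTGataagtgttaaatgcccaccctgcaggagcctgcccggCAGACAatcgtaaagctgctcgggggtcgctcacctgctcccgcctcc
Plk1: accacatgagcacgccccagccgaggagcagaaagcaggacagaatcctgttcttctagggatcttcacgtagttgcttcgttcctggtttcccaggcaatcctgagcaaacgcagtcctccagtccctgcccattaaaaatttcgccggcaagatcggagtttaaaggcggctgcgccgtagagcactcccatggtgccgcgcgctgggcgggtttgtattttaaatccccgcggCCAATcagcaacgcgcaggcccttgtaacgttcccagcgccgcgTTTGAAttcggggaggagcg
The Id2 promoter held 1 GGCGCC and 3 CCAAT, and the Id3 promoter 1 TTTGAA. The Dlx2 promoter held 2 E-boxes. It also held 1 GGCGCC, 1 CCAAT on the other strand and 1 further SMAD motif, while none of the motifs was in these letters of Dlx1. The Plk1 promoter held 1 CCAAT and 1 TTTGAA close to the start, a pairing described in promoters of many genes of mitosis.

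Among the 70 member genes with a promoter entry, GGCGCC was in 16 (22.9%), against 13.4% of 27025 promoters of the same length. CCAAT was in 27 (38.6%, against 41.1%), TTTGAA in 16 (22.9%, against 20.2%), CAGACA in 13 (18.6%, against 23.6%) and CACGTG in 7 (10.0%, against 8.09%). The CArG box was in 1 (1.43%, against 1.81%) and TGACGTCA in 0 (against 2.03%). These shares describe the letters in the window and were not tested.

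Most of the set was lower at 9 h than at 1 h, and lower still at 96 h. From 1 h to 9 h, 39 of the 134 probes fell (adjusted p below 0.05 in limma) and 0 rose. Over all tested probes 0.564% were called lower and 0.889% higher. The median difference of the set was -0.56, with -0.58, -0.48 and -0.57 in replicates 1, 2 and 3, and 131 of 134 estimates were below 0, while the median over all tested probes was within 0.01 of 0. At an unadjusted p below 0.05, 98 members were lower and 0 higher. The share of all tested probes at an unadjusted p below 0.05 is not given, here or for later counts at that level. The shares above are for adjusted calls and are not their background. All 3 arrays at 9 h were below all 3 at 1 h for 91 members, against 6.27% of tested probes. The count rested on single arrays: it was 19 without replicate 2 at 1 h, 22 without replicate 1 at 9 h and 24 without replicate 3 at 9 h, and 11 when arrays were scaled to their median only.

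From 9 h to 96 h, 78 members fell and 0 rose, against 8.49% called lower and 7.32% called higher over all tested probes. The median difference was -0.63, with -0.64, -0.77 and -0.42 in the 3 replicates, and 41 members had an estimate of -1 or lower. All 3 arrays at 96 h were below all 3 at 9 h for 86 members, against 15.1% of tested probes. For 19 members the estimate was above 0, and for 2 of them with an unadjusted p below 0.05. The 2 comparisons share the 9 h arrays, so their values are set side by side and not correlated.

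Shorter steps gave few calls. From 1 h to 3 h 1 member fell, an unnamed probe, and 0 rose, against 0.218% and 0.117% of tested probes. The median difference was -0.30 and 124 of 134 estimates were below 0. From 3 h to 9 h 5 fell and 0 rose, against 0.148% and 0.295%, with a median of -0.27. From 9 h to 24 h 7 fell and 0 rose, against 0.352% and 1.55%, with a median of -0.29. At an unadjusted p below 0.05 the 3 steps gave 44, 43 and 37 members that were lower and 2, 0 and 2 that were higher. Same-numbered arrays deviated together in these steps, and once the replicate number entered the fit as a block 18, 26 and 28 members fell, against 1.04%, 0.785% and 1.25% of tested probes. In that fit 1 member rose from 1 h to 3 h (Dlx3, against 0.778%), 0 from 3 h to 9 h (against 1.74%) and 1 from 9 h to 24 h (Id1, against 2.51%). The counts also moved without single arrays. The single call from 1 h to 3 h was lost without replicate 2 or 3 at 1 h or replicate 1 or 3 at 3 h, and that from 3 h to 9 h dropped to 2 without any of the 3 h arrays and to 3 without replicate 1 at 9 h. From 9 h to 24 h 3 calls were left without replicate 1 at 24 h, and 4 without replicate 2 at 24 h or replicate 2 at 9 h.

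Taken from 1 h, the median over members went from -0.30 (3 h) to -0.56 (9 h), -0.84 (24 h) and -1.27 (96 h). In replicates 1, 2 and 3 it was -1.06, -1.01 and -0.98 at 48 h, then -1.33, -1.25 and -0.91 at 96 h. The timing differed widely within the set. Of the 123 members whose mean was lower by 0.5 or more at 96 h than at 1 h, the median probe had covered 41.8% of that distance by 9 h, with quartiles of 28.7% and 61.8%. For 20 members it was 75% or more, and for 24 it was under 25%. Among the former were Id1, Id2, Mgst2, Ass1, Srsf5, Mgarp, Zfp365 and Podnl1, and among the latter Cxcl12, Igfbp2, Slc1a3, Snai2, Dlx3, Plk1 and all 3 member probes of Ccnd1. These shares start at 1 h and leave out any change before it. Dlx3 was lower at 1 h than at 0 h and 3 h, and its share was -5.3%. Snai2 is among the genes that were picked after their values were seen.

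The Id genes had the deposited differences of -1.48 (Id1), -1.33 (Id2) and -1.54 (Id3) at 6 h that put them in the set. In the test from 1 h to 9 h only Id3 was called. From 1 h to 3 h 0 of the 3 were called without the replicate block and all 3 with it, against 1.04% of tested probes. Their differences over that step were -0.72 (Id1), -1.07 (Id2) and -0.81 (Id3), with adjusted p = 0.0016, 0.0062 and 0.00057 in limma with the block. Id3 read 13.67, 13.06 and 13.19 at 1 h, then 12.71, 12.12 and 12.15 at 9 h, and 11.01, 10.68 and 10.68 by 96 h. Each time's arrays lay wholly below those of the time before. From 1 h to 9 h Id3 fell by 0.98 (SE 0.20, adjusted p = 0.0096 in limma), and from 9 h to 96 h it fell by 1.54 (SE 0.20, adjusted p = 4.9e-06). Its later fall took place between 24 h, at 12.53, 12.24 and 12.34, and 48 h, at 11.03, 11.30 and 10.91, a difference of -1.29 (adjusted p = 0.00047 in limma).

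Id2 and Id1 had estimates close to 0 from 9 h to 96 h, where that of Id3 was -1.54, and the difference between the genes was not tested. Id2 read 12.30, 11.27 and 11.62 at 1 h, 10.71, 9.36 and 10.04 at 9 h, then 10.10, 10.09 and 10.22 at 96 h. All 3 arrays at 9 h were below all 3 at 1 h, but the replicates differed by over 1 unit, with replicate 1 the highest. The difference from 1 h to 9 h was -1.69 (SE 0.44, adjusted p = 0.058 in limma), which missed the threshold, and that from 9 h to 96 h was 0.10. Id1 read 12.63, 12.35 and 12.31 at 0 h, then 12.00, 11.27 and 11.35 at 1 h, and its 9 h arrays, at 11.18, 10.51 and 10.84, were below the 1 h arrays. Its difference from 1 h to 9 h was -0.70 (SE 0.18, adjusted p = 0.059 in limma). At 24 h Id1 stood at 11.62, 11.43 and 11.42, above all its 9 h arrays (0.64, adjusted p = 0.083 without and 0.0013 with the replicate block), and at 96 h at 11.05, 10.77 and 10.80. These 3 genes were the only members on a list of 13 tested TGF-beta and BMP targets, of which 2 fell from 1 h to 9 h (Id3 and Ccn2, a matricellular protein) and 4 from 9 h to 96 h, with 0 rising in either and medians of -0.26 and -0.02.

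Among the other transcription factors, 0 of 9 probes fell from 1 h to 9 h (6 at an unadjusted p below 0.05 in limma) and 6 fell from 9 h to 96 h. The homeobox genes Dlx1, Dlx2 and Dlx3, known for their part in forebrain, skeletal and epidermal development, were all members. Dlx1 and Dlx2 are neighbours on chromosome 2, on opposite strands and with no other protein-coding gene of RefSeq between them. Dlx1 read 9.35, 9.10 and 8.92 at 1 h, 8.76, 8.70 and 8.16 at 9 h, then 7.47, 7.68 and 7.36 at 96 h. Dlx2 read 10.28, 9.65 and 9.89 at 1 h, 9.68, 9.19 and 9.48 at 9 h, then 8.43, 8.78 and 8.87 at 96 h. For both genes the 96 h arrays lay below all 9 h arrays. Those of Dlx1 at 96 h lay around 7.62, the median of tested probes, close to the signal of dim probes. A tested Dlx2 probe outside the set, at a mean level of 7.47, differed by -0.30 early and 0.07 late and was called in neither interval. The values that follow are those of the member probes. From 9 h to 96 h Dlx1 fell by 1.04 (SE 0.21, adjusted p = 0.0014 in limma) and Dlx2 fell by 0.76 (SE 0.19, adjusted p = 0.0072), while from 1 h to 9 h the differences of -0.58 and -0.49 were not called.

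Dlx3 took another course. It read 12.13, 12.76 and 12.55 at 0 h, 11.73, 11.77 and 11.56 at 1 h, 12.27, 12.75 and 12.47 at 3 h, 11.32, 12.14 and 11.86 at 9 h, then 9.47, 10.46 and 10.23 at 96 h. The 1 h arrays were below all arrays at 0 h and at 3 h, so that the level dipped at 1 h and was back at 3 h, a difference of 0.81 whose call depended on the replicate block (SE 0.26, adjusted p = 0.26 in limma without and 0.0021 with the block). It fell by 1.72 from 9 h to 96 h (SE 0.26, adjusted p = 3.8e-05). Dlx1 and Dlx2 are named here after their values were seen.

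Twist2, a bHLH factor that holds back MyoD activity, read 11.45, 11.26 and 11.55 at 1 h, 10.85, 11.27 and 10.99 at 9 h, then 9.66, 10.25 and 10.21 at 96 h. The 1 h and 9 h arrays overlapped, and the 96 h arrays were below both. It fell by 0.99 from 9 h to 96 h (SE 0.18, adjusted p = 0.00031 in limma). Over the same interval Snai2, a zinc finger repressor expressed in mesenchymal cells, fell by 1.38 (adjusted p = 0.00067) and Ebf1, a factor of B cell and adipocyte differentiation, fell by 1.41 (adjusted p = 2.3e-06). Foxc2, a forkhead factor of mesoderm, and both probes of Klf7, a Kruppel-like factor, had differences of -0.37, -0.59 and -0.56 that were not called. Twist2, Id1 and Id3 were the members on a list of 17 tested myoblast regulators, of which 1 (Id3) fell and 4 rose from 1 h to 9 h, and 5 fell and 0 rose from 9 h to 96 h, with medians of 0.31 and -0.22. The 4 that rose were the Notch targets Hes1, Hey1 and Heyl and the SOX factor Sox8, at 0.89, 0.70, 1.30 and 1.83.

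The largest early fall was that of Srsf5, a serine/arginine-rich splicing factor. It read 11.65, 11.74 and 12.03 at 0 h, 11.99, 12.70 and 12.70 at 1 h, 10.27, 10.59 and 11.30 at 9 h, then 10.98, 10.95 and 11.49 at 96 h. The 9 h arrays were below all arrays at 0 h and 1 h and overlapped those at 96 h. From 1 h to 9 h it fell by 1.74 (SE 0.22, adjusted p = 0.00016 in limma), a step that began from a level above that at 0 h. A second tested probe of Srsf5 outside the set fell by 1.22 (adjusted p = 0.023). The difference from 9 h to 96 h was 0.42 and not called. The clock genes Dbp and Per3, a PAR bZIP activator and a period protein, had early differences of -0.53 and -0.46 that were not called, and by 96 h Dbp read 12.38, 11.62 and 12.31, overlapping its 1 h arrays at 12.04, 12.51 and 12.38.

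Zmynd8, a reader of histone acetylation, was represented by 3 probes, Tle6, a Groucho-type corepressor, by 1, and Ccdc85b, a small coiled-coil protein reported to repress transcription, by 1. From 1 h to 3 h 0 of these 5 probes were called without the replicate block and 4 fell with it, against 1.04% of tested probes. Only Ccdc85b was called from 1 h to 9 h, where it fell by 0.75. Tle6 differed by -0.61 from 1 h to 9 h and by -0.08 from 9 h to 96 h. Of the 3 Zmynd8 probes, 2 fell from 9 h to 96 h, with differences of -0.53 and -0.39. The third, at -0.32, was called with the replicate block and not without it (adjusted p = 0.028 and 0.14 in limma).

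Cyclin D1 was measured by 3 member probes. The brightest probe of Ccnd1 read 13.72, 13.60 and 13.74 at 1 h, 13.31, 13.27 and 13.26 at 9 h, 12.33, 12.26 and 12.27 at 48 h, then 10.99, 11.75 and 11.75 at 96 h. Each time's arrays were below those of the time before, and at 96 h replicate 1 was the lowest. The early difference was -0.41 (SE 0.14, adjusted p = 0.22 in limma), and from 9 h to 96 h the probe fell by 1.78 (SE 0.14, adjusted p = 3.7e-09). The other two member probes fell over that interval, with differences of -1.56 and -1.30, and had early differences of -0.49 and -0.24. A tested Ccnd1 probe outside the set fell by 0.58 from 1 h to 9 h (adjusted p = 0.043 in limma) and fell by 1.57 from 9 h to 96 h, and another, at a mean level of 9.03, was called in neither.

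All 12 probes of cell division genes fell from 9 h to 96 h, with differences between -1.27 and -0.68, and 0 of 12 fell from 1 h to 9 h, where 3 were lower at an unadjusted p below 0.05 in limma. Plk1, the polo kinase that drives entry into and passage through mitosis, read 12.36, 12.35 and 12.43 at 1 h, 12.06, 12.50 and 12.18 at 9 h, 11.48, 11.83 and 11.92 at 24 h, 12.35, 12.33 and 12.42 at 48 h, then 10.12, 11.00 and 11.84 at 96 h. The 9 h arrays overlapped those at 1 h, the 48 h arrays were above all 24 h arrays, and the 96 h arrays were below those at 1, 9 and 48 h, with replicate 3 overlapping the 24 h arrays. Plk1 fell by 1.26 from 9 h to 96 h (SE 0.27, adjusted p = 0.0018 in limma). Cenpa, the histone H3 variant of centromeres, fell by 1.19 (SE 0.21, adjusted p = 0.00037), and the 2 probes of Birc5, the survivin subunit of the chromosomal passenger complex, fell with differences of -1.26 and -1.20.

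The cell division genes were the only group of roles with a median above 0 from 24 h to 48 h. Their median difference over that step was 0.41, against -0.24 over all members and 0.00 over all tested probes, and 0 of 12 were called in limma, with 3 higher at an unadjusted p below 0.05. Birc5 illustrates it, at 11.83, 12.13 and 11.81 at 24 h, 12.55, 12.55 and 12.30 at 48 h, then 10.26, 11.14 and 11.72 at 96 h. The 48 h arrays were above all those at 24 h and 96 h. Tk1, thymidine kinase of S phase, read 10.81, 11.07 and 10.66 at 24 h, then 11.50, 11.59 and 11.21 at 48 h, again without overlap. At 96 h replicate 1 was the lowest in Plk1, Birc5, Cenpa and Tk1. Others in the group were the cytokinesis scaffold Anln, the mitotic entry factor Cdca3, the kinetochore proteins Cenpp and Spc24, the checkpoint adaptor Clspn, the fork-remodelling enzyme Zranb3 and the histone H2ac22. H2ac22 is a histone gene of a multigene family, so its probe may bind near-identical copies. On the wider lists, 12 of 17 tested genes of G2 and mitosis and 11 of 22 of G1 and S phase fell from 9 h to 96 h, with 0 rising and medians of -1.19 and -0.55, and from 1 h to 9 h 0 fell in either list, and E2f2, an E2F transcription factor, rose in the latter. Plk1, Birc5 and Cenpa were the members on the former list and Ccnd1 on the latter.

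Of 8 secreted factors, 3 fell from 1 h to 9 h and 7 from 9 h to 96 h. Hgf, the ligand of the Met receptor, read 10.36, 10.65 and 10.18 at 1 h, 9.87, 9.87 and 10.02 at 3 h, 8.99, 8.57 and 9.18 at 9 h, then 7.30, 7.05 and 7.38 at 96 h. The arrays of each of these times lay wholly below those of the one before. Hgf fell by 1.48 from 1 h to 9 h (SE 0.17, adjusted p = 5.9e-05 in limma) and fell by 1.67 from 9 h to 96 h (SE 0.17, adjusted p = 1.2e-07). It was also among the 4 named members called from 3 h to 9 h, with Pde8a, Mgst2 and Zfp365, and there fell by 1.00 (adjusted p = 0.0088 in limma). The call of Zfp365 was lost without any 1 of the 6 arrays of these times, and that of Mgst2 without any but replicate 2 at 9 h. A second tested Hgf probe, outside the set because its deposited difference at 6 h was -0.391, fell by 1.23 from 1 h to 9 h (adjusted p = 0.0048 in limma) and fell by 2.36 from 9 h to 96 h (adjusted p = 8.1e-08). By 96 h the member probe was under 7.62, the median of tested probes, so that the signal left there was close to that of dim probes.

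Cxcl12, the ligand of the receptor Cxcr4, read 12.84, 12.94 and 12.71 at 1 h, 12.70, 12.63 and 12.45 at 9 h, 11.39, 11.49 and 11.05 at 24 h, 9.64, 10.20 and 10.43 at 48 h, then 9.61, 9.91 and 10.38 at 96 h. The 9 h arrays were all slightly below those at 1 h, and the 24 h and 48 h arrays were each below all of the time before. The early difference was -0.24 (SE 0.19, adjusted p = 0.80 in limma). Cxcl12 fell by 1.28 from 9 h to 24 h (SE 0.19, adjusted p = 0.00021) and fell by 2.62 from 9 h to 96 h (SE 0.19, adjusted p = 7e-10).

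Igfbp2, an insulin-like growth factor binding protein, read 12.83, 13.97 and 13.43 at 9 h, then 10.94, 11.48 and 12.00 at 96 h, without overlap, and fell by 1.93 (SE 0.31, adjusted p = 9.1e-05 in limma). Csf1, the macrophage colony-stimulating factor, fell by 0.86 over the same interval (SE 0.17, adjusted p = 0.00079), and Spon2, an extracellular matrix protein, fell by 1.12 (adjusted p = 8.4e-05). Podnl1, a small leucine-rich proteoglycan, fell by 0.81 early (SE 0.18, adjusted p = 0.018), and its difference from 9 h to 96 h was -0.04. Hgf, Csf1 and Cxcl12 were the members on a list of 22 tested growth factors and receptors, of which 1 (Hgf) fell and 0 rose from 1 h to 9 h, and 10 fell and 2 rose from 9 h to 96 h, with medians of -0.09 and -0.42. Met itself differed by 0.18 and -0.07 and was called in neither.

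Among receptors and surface proteins, 1 of 10 probes fell from 1 h to 9 h and 7 from 9 h to 96 h. Clmp, an adhesion molecule of the CAR family, read 12.06, 12.32 and 12.10 at 1 h, 11.33, 11.18 and 11.85 at 9 h, then 9.14, 8.74 and 9.25 at 96 h. The groups did not overlap, and Clmp fell by 2.41 from 9 h to 96 h (SE 0.21, adjusted p = 1.8e-08 in limma). Cd47, the ligand that restrains phagocytosis, fell by 1.18 and Ly6e, a GPI-anchored surface protein, fell by 0.80 from 9 h to 96 h. The interferon-induced membrane genes Ifitm1 and Ifitm3 are neighbours on chromosome 7 and are close in sequence, so their probes may share signal. Ifitm1 fell by 1.21 from 9 h to 96 h. A brighter Ifitm1 probe outside the set, at a mean level of 15.73, was not called (-0.36, adjusted p = 0.15 in limma), nor were dimmer ones at 7.34 and 6.77. Of 2 Ifitm3 probes 1 was called, with a difference of -0.49. The other, at -0.42, was called with the replicate block and not without it (adjusted p = 0.00096 and 0.077 in limma). Mr1, which presents vitamin metabolites to T cells, fell by 0.58 from 1 h to 9 h and fell by 0.43 from 9 h to 96 h. An Mr1 probe outside the set, at a mean level of 9.00, fell by 0.64 early (adjusted p = 0.018 in limma). Its late difference was 0.12 and not called, and a dimmer Mr1 probe, at 7.17, was called in neither interval. From 9 h to 96 h the heparan sulfate proteoglycan Sdc3 fell by 0.84, whereas the Wnt receptor Fzd6 and the adhesion receptor Adgrg3, at -0.30 and -0.15, were not called.

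Detoxification enzymes fell in 4 of 6 probes from 1 h to 9 h and in 5 of 6 from 9 h to 96 h. The 3 member probes of Ugt1a7c, a UDP-glucuronosyltransferase, fell in both intervals. Their differences were -0.83, -0.80 and -0.74 in the first and -2.21, -2.07 and -2.06 in the second. The Ugt1a genes share their last exons, so these probes may report other members of that cluster. On the probe with the largest fall, the 1 h arrays read 11.15, 10.76 and 11.06, the 9 h arrays 10.37, 10.10 and 10.01 and the 96 h arrays 8.26, 7.72 and 7.87, with no overlap. The tested Ugt1a7c probes outside the set, at mean levels of 7.44, 6.81 and 7.49, were called in neither interval. Their early differences were 0.11, -0.23 and -0.13, and their late ones 0.06, -0.39 and -0.48. All 3 Ugt1a7c member probes and Gstm6, a glutathione transferase, were also among the 7 members that fell from 9 h to 24 h. The others were Cxcl12, the sulfotransferase Chst1 and 1 unnamed probe. Gstm6 fell by 1.89 from 9 h to 96 h (SE 0.20, adjusted p = 3.1e-07 in limma), and its relative Gsta4 fell by 1.60.

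Mgst2, a microsomal glutathione transferase, had the opposite timing. It read 10.70, 10.59 and 10.84 at 1 h, 9.31, 9.81 and 8.86 at 9 h, 8.23, 8.30 and 8.30 at 48 h, then 9.10, 9.36 and 9.55 at 96 h. The 9 h arrays were below all 1 h arrays, the 48 h arrays were the lowest, and those at 96 h overlapped 9 h. It fell by 1.38 from 1 h to 9 h (SE 0.19, adjusted p = 0.00031 in limma) and differed by 0.01 from 9 h to 96 h.

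Other enzymes included 8 of 13 probes that fell from 1 h to 9 h and 7 that fell from 9 h to 96 h, or 11 with the replicate block. Cda, cytidine deaminase of pyrimidine salvage, read 9.63, 9.97 and 9.88 at 1 h, 8.14, 8.89 and 8.41 at 9 h, then 7.23, 7.52 and 7.81 at 96 h, without overlap. It fell by 1.34 (SE 0.24, adjusted p = 0.0039 in limma) and later fell by 0.96 (SE 0.24, adjusted p = 0.0072). Its 96 h arrays lay around 7.62, the median of tested probes, close to the signal of dim probes. Ass1, argininosuccinate synthase of arginine synthesis, read 12.85, 13.02 and 12.41 at 1 h, 11.48, 12.23 and 11.35 at 9 h, 10.99, 11.50 and 11.28 at 24 h, then 11.65, 12.31 and 11.75 at 96 h. The 9 h arrays were below those at 1 h, and the 96 h arrays overlapped those at 9 h and were above those at 24 h. Ass1 fell by 1.07 early (SE 0.26, adjusted p = 0.038 in limma), with a difference of 0.22 from 9 h to 96 h.

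Lpl, lipoprotein lipase, had the largest late fall of a named gene. It read 13.50, 12.77 and 12.34 at 1 h, 12.35, 10.88 and 12.00 at 9 h, then 9.85, 8.52 and 8.81 at 96 h. Replicate 1 was the highest at each of these times, the 1 h and 9 h arrays overlapped, and the 96 h arrays were below all others. The early difference of -1.13 was not called (SE 0.48, adjusted p = 0.39 in limma), and from 9 h to 96 h Lpl fell by 2.68 (SE 0.48, adjusted p = 0.00032). Pde8a, a cAMP phosphodiesterase, fell by 0.88 from 1 h to 9 h (SE 0.17, adjusted p = 0.0089). Its arrays at 3 h, at 10.69, 10.62 and 10.82, were above those at 1 h, at 10.62, 10.48 and 10.53, in each replicate, and its 9 h arrays at 9.66, 9.83 and 9.51 were below both.

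Of 5 transporters, Slc1a3 alone fell in both intervals, and with the replicate block Slc25a30, a carrier of the mitochondrial family, also fell from 9 h to 96 h (-0.57, adjusted p = 0.077 in limma without and 0.00089 with the block). Slc1a3, a glutamate and aspartate transporter, read 13.07, 13.28 and 13.34 at 1 h, 12.48, 12.32 and 12.48 at 9 h, 11.76, 12.12 and 12.03 at 24 h, 9.76, 10.78 and 10.38 at 48 h, then 9.71, 9.71 and 10.13 at 96 h. Apart from the 48 h and 96 h arrays, no times overlapped. It fell by 0.81 early (SE 0.19, adjusted p = 0.027 in limma) and fell by 2.57 late (SE 0.19, adjusted p = 8.2e-10). A second probe of Slc1a3 outside the set fell by 0.91 early (adjusted p = 0.00078 in limma) and fell by 0.55 late (adjusted p = 0.0062). Slc1a4, a neutral amino acid transporter of the same family, had differences of -0.57 and 0.52. Neither was called without the replicate block, and both were with it (adjusted p = 0.0094 and 0.0040 in limma). Same-numbered arrays did not meet the pairing criterion given below for the first of these intervals.

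Among 16 probes of cytoskeletal and GTPase signalling genes, 8 fell from 1 h to 9 h and 8 from 9 h to 96 h. Plekhg4, a guanine nucleotide exchange factor, read 9.53, 10.33 and 9.41 at 1 h, 8.53, 9.00 and 8.28 at 9 h, then 7.62, 7.84 and 7.68 at 96 h, without overlap. It fell by 1.15 (SE 0.26, adjusted p = 0.026 in limma) and later fell by 0.89 (SE 0.26, adjusted p = 0.023). Dpysl3, a cytosolic phosphoprotein of the collapsin response family, had early and late differences of -0.71 and -0.63, and Rasl11a, a small Ras-like GTPase, of -0.78 and -1.31, all 4 of them called. Arap3, a GTPase-activating protein, fell by 0.72 early, and Arpc1b, a subunit of the actin-nucleating Arp2/3 complex, fell by 0.49. Their differences of -0.28 and -0.35 from 9 h to 96 h were not called, though the second was with the replicate block (adjusted p = 0.0033 in limma).

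Krt14, a keratin of basal epithelial cells, went furthest against the set. It read 10.69, 11.30 and 11.00 at 0 h, 9.37, 10.16 and 10.11 at 24 h, 10.72, 11.31 and 11.35 at 48 h, 10.48, 11.78 and 11.96 at 96 h, then 9.95, 10.69 and 10.75 at 144 h. The 48 h arrays were above all 24 h arrays. It was the only member whose mean at 48 h or at 96 h lay above that at 0 h, and the differences of 1.25 from 24 h to 48 h and 0.97 from 9 h to 96 h were not called (adjusted p = 0.089 and 0.087 in limma). With the replicate block both were (adjusted p = 0.0005 and 0.0011 in limma). Same-numbered arrays did not meet the pairing criterion given below for the first of these steps.

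Celf4, an RNA-binding protein that regulates splicing, read 9.97, 10.68 and 10.41 at 1 h, 8.95, 9.15 and 9.67 at 9 h, then 7.74, 7.74 and 8.05 at 96 h, without overlap. It fell by 1.10 (SE 0.20, adjusted p = 0.0039 in limma) and later fell by 1.41 (SE 0.20, adjusted p = 1.7e-05). The other tested Celf4 probes, at mean levels of 7.23, 7.93 and 8.16, were called in neither interval. Their early differences were 0.09, -0.32 and -0.18, and their late ones 0.01, -0.01 and -0.14. Mgarp, a mitochondrial outer membrane protein, fell by 1.30 early (SE 0.30, adjusted p = 0.026), and Zfp365, a zinc finger protein, fell by 0.82 (SE 0.17, adjusted p = 0.012), and neither was called later, at -0.24 and 0.08. A tested Zfp365 probe outside the set, at a mean level of 8.07, differed by 0.17 early and -0.08 late and was called in neither interval. Of the 11 named member probes outside the groups above, which include those of Celf4, Mgarp and Zfp365, 4 fell early and 4 late. Of the 30 probes without a symbol, 7 fell early and 15 late, with medians of -0.60 and -0.53.

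The step from 24 h to 48 h was added after the course was seen. In it 31 members fell and 2 rose, against 1.35% and 1.12% of tested probes, and the 2 that rose had no symbol. The largest falls of named genes were those of Lpl, Slc1a3, Ifitm1 and Clmp, with differences of -1.92, -1.66, -1.56 and -1.50. All 3 Ugt1a7c member probes fell, with differences of -1.32, -1.23 and -1.10. The call of Lpl was lost without any 1 of the 6 arrays of these times. Over this step 40 of 134 members had a higher mean at 48 h. The count was 17 without replicate 2 at 24 h, 16 without replicate 3 at 24 h and 16 without replicate 1 at 48 h, and of the 2 that rose 0 or 1 was called without any single array of the 2 times.

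Genes of the set and other probes for them could be compared in part. There were 85 further probes for 49 of the member genes, and 69 of them, for 45 genes, were tested. From 1 h to 9 h 7 fell and 1 rose, and from 9 h to 96 h 21 fell and 0 rose, with medians of -0.12 and -0.24. The 1 that rose was a probe of Dpysl2, a relative of Dpysl3, by 0.74 (adjusted p = 0.0028 in limma), at a mean level of 7.51, and its member probe differed by -0.18. Only 34 of the 69 had a mean level above the median of tested probes.

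The other lists describe the background of the course and held 0 members, from which nothing is read, since lists this short hold few of the 29812 tested probes. Of 16 tested immediate early genes, which serum induces within minutes, 12 fell from 1 h to 9 h, with a median of -0.81, and 0 were members. ERK feedback genes fell in 3 of 16, SRF and YAP targets in 4 of 20 with 1 rising, and MYC and ribosome biogenesis genes in 1 of 21, with medians of -0.28, -0.02 and 0.14 and 0 members in each. From 9 h to 96 h those 4 lists had 5, 6, 6 and 2 that fell and 3, 1, 0 and 3 that rose. Genes of the amino acid response to ATF4 held 0 members, with 9 of 17 rising from 9 h to 96 h. Genes of skeletal muscle differentiation also held 0 members, and 10 of 21 rose from 1 h to 9 h and 16 of 21 from 9 h to 96 h, with medians of 1.62 and 2.54. Glycolysis genes fell in 1 of 12 in the first interval and rose in 3 in the second, sterol synthesis genes were called in 0 of 12 in both, and genes of extracellular matrix and adhesion fell in 1 and 4 of 22 and rose in 0 and 5, all without members. Among the adipocyte, osteoblast, macrophage and endothelial lists, Sp7, an osteoblast factor, rose by 0.48 from 9 h to 96 h and 0 others were called. In the interval from 9 h to 96 h the replicate block raised the falls on the MYC list to 4 and on the glycolysis list to 2, and gave 1 fall each among sterol synthesis genes and adipocyte markers. It raised the falls to 15 among genes of G1 and S phase, 13 of G2 and mitosis, 9 among SRF and YAP targets, 8 among ERK feedback genes and 11 among growth factors and receptors. It gave 1 rise each among SRF and YAP targets, sterol synthesis genes, TGF-beta and BMP targets and genes of G1 and S phase, 2 among myoblast regulators and 4 among growth factors and receptors. Rises went to 12 among ATF4 genes, 18 among genes of skeletal muscle differentiation and 4 on the MYC list.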

How the data were processed

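Transcript levels were measured at 12 times, with 3 arrays each, on 36 arrays of 6 chips. Per the labels' protocols, Trizol was used for RNA extraction, and amplified RNA carried a biotin label. The raw intensity of 46019 probes was deposited on a linear scale, with array medians from 179 to 307 and all values above 0. The authors also deposited log2 values after normalization, from 8.33 to 16.2. How they were normalized is not stated in the labels or headers.

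Probes carry numeric identifiers. Each of the 44505 value-table rows equalled exactly 1 row of the normalized table on all 36 arrays to 6 decimals, which tied the identifiers to the platform annotation and gave 28471 probes 1 gene, 10 several and 17538 none. The annotation can be old. No symbol changed through its Entrez identifier (0 updated).

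The set was found in the deposited log2 values. For the tests, raw intensity was corrected by normexp (offset 50), taken to log2 and quantile-normalized, and probes above their array's median on at least 3 arrays were kept (29812 tested, 16207 removed). limma 3.58.1 in R 4.3.3 fitted a mean per time to the 24 arrays that the choice did not use, with an intensity trend. P-values were two-sided, adjusted by Benjamini-Hochberg over all tested probes. The median standard error of a difference from 1 h to 9 h was 0.149. The fit was tested on simulated data in which 200 of 29812 probes changed between 1 h and 9 h. It recovered 17.9% of changes of 0.5, 83.6% of changes of 1 and 93.9% of changes of 2, and 1 of 131 calls was false. An early difference near 0.5 that was not called may therefore still be a change. Python 3.11.15 was used for the tables.

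Whether replicate numbers pair arrays was checked by correlating, across probes, how far arrays of the same number lay from the mean of their time. The 3 correlations were all above 0.1 in the comparisons from 1 h to 3 h, 3 h to 9 h, 9 h to 24 h and 9 h to 96 h (lowest 0.13), and not in those from 1 h to 9 h (lowest 0.09) or 24 h to 48 h (lowest 0.06). Same-numbered arrays could be alike through a shared chip, since each chip held 1 replicate number.

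The members, the 18 gene lists and the tests were chosen with earlier results of these data known, and the role groups after the members were listed. Named genes were the 12 members with the largest called falls from 1 h to 9 h and the 8 from 9 h to 96 h that were lower in all 3 same-numbered differences, members on a list, and probes nearest the limits. No member met the part of the rule for called rises, and others are named as examples of a role, after their values were seen. List genes were taken at their brightest probe. Alternatives were the deposited values, other background and scaling choices, other filters, blocks for replicate and chip, other sets of arrays, and fits without each replicate or array.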

Additional observations from a re-analysis of the deposited data

How the results depend on the processing

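Directions of the median difference of the set were kept under every alternative run, and 860 of 1008 alternative values of 48 results on named genes kept their call, 148 lost it and 0 reversed. Counts of members called moved far more. The share of all tested probes called is given only for the main fit and, in part, for the replicate block. It is not given for the 2 and 4 rises with that block below, or for any other fit here or above. Those counts therefore cannot be set against a background. In the order 3 h against 1 h, 9 h against 1 h, 9 h against 3 h and 24 h against 9 h, the counts that fell were 1, 39, 5 and 7. With the replicate block they were 18, 80, 26 and 28, from 9 h to 96 h 90 fell and 2 rose, and from 24 h to 48 h 41 fell and 4 rose. Of all tested probes, the block called 1.76% lower from 1 h to 9 h, 12.7% from 9 h to 96 h and 3.46% from 24 h to 48 h. The block added 1 rise from 1 h to 3 h and 1 from 9 h to 24 h. Same-numbered arrays did not meet the pairing criterion for 9 h with 1 h or 48 h with 24 h, so the 80, and the 41 and 4, stand here only. With the chip as a block they were 14, 56, 13 and 27, and 1, 3 and 4 rose from 9 h to 24 h, from 9 h to 96 h and from 24 h to 48 h. Median scaling gave 0, 11, 0 and 6, and 15 that fell with 1 that rose from 24 h to 48 h, with medians of -0.42 and -0.15 from 1 h and 3 h to 9 h. Cyclic loess gave 3 from 3 h to 9 h. The stricter filter gave 5, 51, 11 and 12, with 1 rising in the last. Only the arrays of the times compared gave 0, 4, 0 and 1, and 4 rises from 24 h to 48 h. From 1 h to 3 h, 3 fell in the deposited table, in the value table and without the trend, and 6 with all 36 arrays. In the 2 deposited tables the median from 1 h to 9 h was -0.48, on their compressed scale. The chip block moved the median from 3 h to 9 h to -0.22. Leaving out a replicate or an array gave 0 to 1, 4 to 41, 0 to 4 and 1 to 9 that fell in the order above, 50 to 77 from 9 h to 96 h and 7 to 29 from 24 h to 48 h, the 4 of 39 without all arrays of replicate 3 and the 50 of 78 without those of replicate 2. It gave 0 to 1 that rose in the last 2 comparisons and from 9 h to 24 h. The medians ran from -0.38 to -0.26, from -0.32 to -0.20 (3 h to 9 h), from -0.33 to -0.20 (9 h to 24 h) and from -0.29 to -0.17 (24 h to 48 h). Without single arrays, the early calls of Ass1, Id3, Mgarp, Pde8a, Plekhg4, Podnl1, Slc1a3 and Zfp365 were lost in at least 1 case. So were the late calls of Cda, without replicate 1 at 96 h, and of Plekhg4, without replicate 2 at 9 h or replicate 1 or 3 at 96 h, the call of Gstm6 from 9 h to 24 h, those of Mgst2 and Zfp365 from 3 h to 9 h and that of Lpl from 24 h to 48 h. The rule found 282 probes on the values used for the tests, 126 of them members, 213 without background correction, 63 with limits stricter by 0.1 and 292 with limits looser by 0.1, and 138 to 181 without a replicate. The causes of these changes were not tested. Signal over background limits the 5 members whose mean at 96 h was under the median of tested probes.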
